A study of Homo sapiens with 2 samples.

Results

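The zinc finger gene clusters of chromosome 19 were examined in H3K27ac HiChIP of HCT116, a human colorectal cancer cell line. A loop was a pair of separate anchors no more than 2 Mb apart with at least 1 count, and members were loops whose anchors both lay in chr19:19800000-24500000 (19p12) or both in chr19:52400000-59000000 (19q13.4), in hg19. There were 1398 such loops of 1017526 in all in replicate 1 and 1571 of 1156897 in replicate 2, or 2621 of 1973472 loops found in either replicate. Of these, 101 lay in 19p12 and 2520 in 19q13.4, and the windows held 55 and 450 of the 4706 anchors of the chromosome and of the 250223 anchors in all. The remaining chromosome 19, with 4201 anchors and 32606 loops, served as the comparison.

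The study profiled enhancers of colorectal cancer, and HiChIP was made in 1 condition, in HCT116 cells grown in DMEM with serum and no treatment named, as 2 replicates. HiChIP joins chromatin contacts made by ligation of MboI ends with precipitation by an antibody, here against H3K27ac, a mark of active promoters and enhancers. A count is the number of read pairs joining 2 anchors, and an anchor is a deposited interval, here of 1178 to 35882 bases in 19q13.4 and 1198 to 6250 bases in 19p12. The libraries held 1885481 and 2131466 counts, of which 1.97% and 1.98% lay on chromosome 19. Nothing states that the replicates came from separate cultures. Values below are sums over both replicates unless a replicate is named, intervals are exact at the 95% level and cover counting error only, and p-values were adjusted over 212 tests.

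KRAB zinc finger genes form the largest family of transcription factor genes in human cells and arose largely by tandem duplication, so that they lie in arrays of similar genes. Their proteins bind DNA through a row of zinc fingers, which a single last exon usually encodes. Many recruit TRIM28 and SETDB1, which deposit H3K9me3 and silence transposable elements, and H3K9me3 is also known from the bodies of these genes themselves.

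The windows differed in what they held. In 19p12, 34 of 37 protein-coding genes (91.9%) were zinc finger genes by their symbols, which fits the name of the window. In 19q13.4 this held for 108 of 225 genes (48.0%), since a gene-rich stretch with 2 zinc finger genes among 75 (chr19:54000001-56000000) lies between zinc finger stretches at chr19:52400000-54000000 and chr19:56000001-59000000, where 106 of 150 genes were zinc finger genes. The stretch was set apart after the values had been seen, by the rule that a zinc finger stretch is a 1 Mb bin with at least 5 starts of zinc finger genes. Gene density played no part in this rule, so gene-rich is only a label. The stretch held 75 protein-coding genes in 2 Mb, against 150 in 4.6 Mb of the zinc finger stretches. Whether a gene encodes a KRAB domain was not checked.

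The starts and last exons of these genes were compared for likeness, which differed between the windows. The 250 bases before the start are given for ZNF430, the deepest zinc finger start of 19p12, for ZNF91, a start of the same window whose anchor had no count to another anchor, and for ZNF628, the deepest of 19q13.4. They were read from hg19 on the strand of the gene, and capitals mark CG dinucleotides.

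ZNF430 (chr19:21203213-21203462, strand +): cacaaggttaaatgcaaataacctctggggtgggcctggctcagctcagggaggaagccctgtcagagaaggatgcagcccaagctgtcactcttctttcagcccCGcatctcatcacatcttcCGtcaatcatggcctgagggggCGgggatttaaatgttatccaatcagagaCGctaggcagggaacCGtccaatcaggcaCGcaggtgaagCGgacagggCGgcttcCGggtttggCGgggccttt

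ZNF91 (chr19:23578274-23578523, strand -): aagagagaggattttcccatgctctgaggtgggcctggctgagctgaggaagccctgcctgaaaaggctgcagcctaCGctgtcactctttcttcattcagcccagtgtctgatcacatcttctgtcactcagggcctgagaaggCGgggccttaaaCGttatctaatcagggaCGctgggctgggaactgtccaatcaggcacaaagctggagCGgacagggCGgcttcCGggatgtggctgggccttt

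ZNF628 (chr19:55987734-55987983, strand +): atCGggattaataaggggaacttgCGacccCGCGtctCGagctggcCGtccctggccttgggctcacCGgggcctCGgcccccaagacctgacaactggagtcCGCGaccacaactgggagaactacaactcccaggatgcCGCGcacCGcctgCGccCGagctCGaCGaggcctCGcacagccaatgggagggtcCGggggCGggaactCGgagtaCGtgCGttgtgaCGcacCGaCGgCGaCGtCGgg

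ZNF430 and ZNF91 were identical at 81.6% of positions in a global alignment, whereas ZNF628 was identical to them at 58.0% and 60.8%. Over all 561 pairs of starts of 19p12 the median identity was 75.2%, and 165 pairs (29.4%) were above 80%. In 19q13.4 the median over 5778 pairs was 58.4%, and 30 pairs (0.519%) were above 80%. ZNF430 held 10 CG dinucleotides, ZNF91 held 7 and ZNF628 held 29. The starts of 19p12 were poor in CG whether they lay in an anchor (median 8 in 250 bases, 8 genes) or not (median 9, 26 genes), while zinc finger starts of 19q13.4 had medians of 19 in an anchor and 17 outside.

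The commonest run of 15 bases in the coding parts of the last exons was TCATACTGGAGAGAA, which encodes part of the link between neighbouring fingers. It is marked by capitals in 240 coding bases of ZNF28, a gene of 19q13.4, shown as an example of a stretch of fingers that does not lie on an anchor.

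ZNF28 (chr19:53303200-53303439, strand -): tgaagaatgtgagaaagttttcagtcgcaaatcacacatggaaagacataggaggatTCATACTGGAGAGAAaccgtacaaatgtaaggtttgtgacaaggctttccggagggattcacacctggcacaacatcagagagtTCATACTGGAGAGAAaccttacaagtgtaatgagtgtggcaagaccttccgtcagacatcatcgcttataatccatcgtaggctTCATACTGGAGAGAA

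These letters occurred 420 times in the last exons of 75 of 141 zinc finger genes, in all 34 genes of 19p12 and in 41 of 107 of 19q13.4. On both strands they occurred 74.4 times per Mb in 19p12, 37.7 times in 19q13.4 and 1.23 times in the remaining chromosome. Of the copies, 2.02% lay in anchors in 19p12, 5.22% in 19q13.4 and 3.64% in the remaining chromosome, where anchors cover 3.25%, 19.1% and 26.2% of the bases, and 1 of 55 and 4 of 450 anchors held a copy, against 2 of 4201 elsewhere. The last exon of a zinc finger gene touched an anchor in 1 of 34 genes of 19p12 and in 19 of 108 genes of 19q13.4.

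Anchors were sparse in 19p12 and less so in 19q13.4. There were 11.8 anchors per sequenced Mb in 19p12, 68.2 in 19q13.4 and 94.3 in the remaining chromosome. The density in 19p12 was 0.125 times that of the remaining chromosome (0.0943 to 0.164, exact binomial test, adjusted p = 3.22e-109), and in 19q13.4 it was 0.723 times (0.655 to 0.797, exact binomial test, adjusted p = 9.46e-11). Both tables share 1 anchor set, so these densities have no spread between replicates. These tests, and those of density below, treat anchors as independent. Anchors of 19p12 were clustered, so the intervals are too narrow and the p-values overstate the evidence. Anchors covered 3.25% of the bases of 19p12, 19.1% of those of 19q13.4 and 26.2% of those of the remaining chromosome.

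Within 19q13.4, the zinc finger stretches held 55.9 anchors per Mb and the gene-rich stretch 96.5, close to the 97.02 of the remaining chromosome without zinc finger stretches. The ratio of the first pair was 0.579 (0.478 to 0.701, exact binomial test, adjusted p = 1.15e-07). The other zinc finger stretches of chromosome 19 held 83.7 anchors per Mb, and both windows lay below them, with ratios of 0.667 (0.577 to 0.769) for the zinc finger stretches of 19q13.4 against these, and 0.212 (0.155 to 0.284) for 19p12 against the zinc finger stretches of 19q13.4.

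Base composition and repeated sequence moved with the windows to different degrees. The GC content was 41.1% in 19p12, 46.9% in 19q13.4 and 49.3% elsewhere. Positions whose 50 bases occur once in the genome made up 88.5%, 88.8% and 90.3% of the sequence, and with these bases as the length the density ratios differed little. The MboI site GATC occurred 2.45, 3.11 and 3.13 times per kb. The part of GC content and site density in the difference was not tested.

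**Figure D1:**
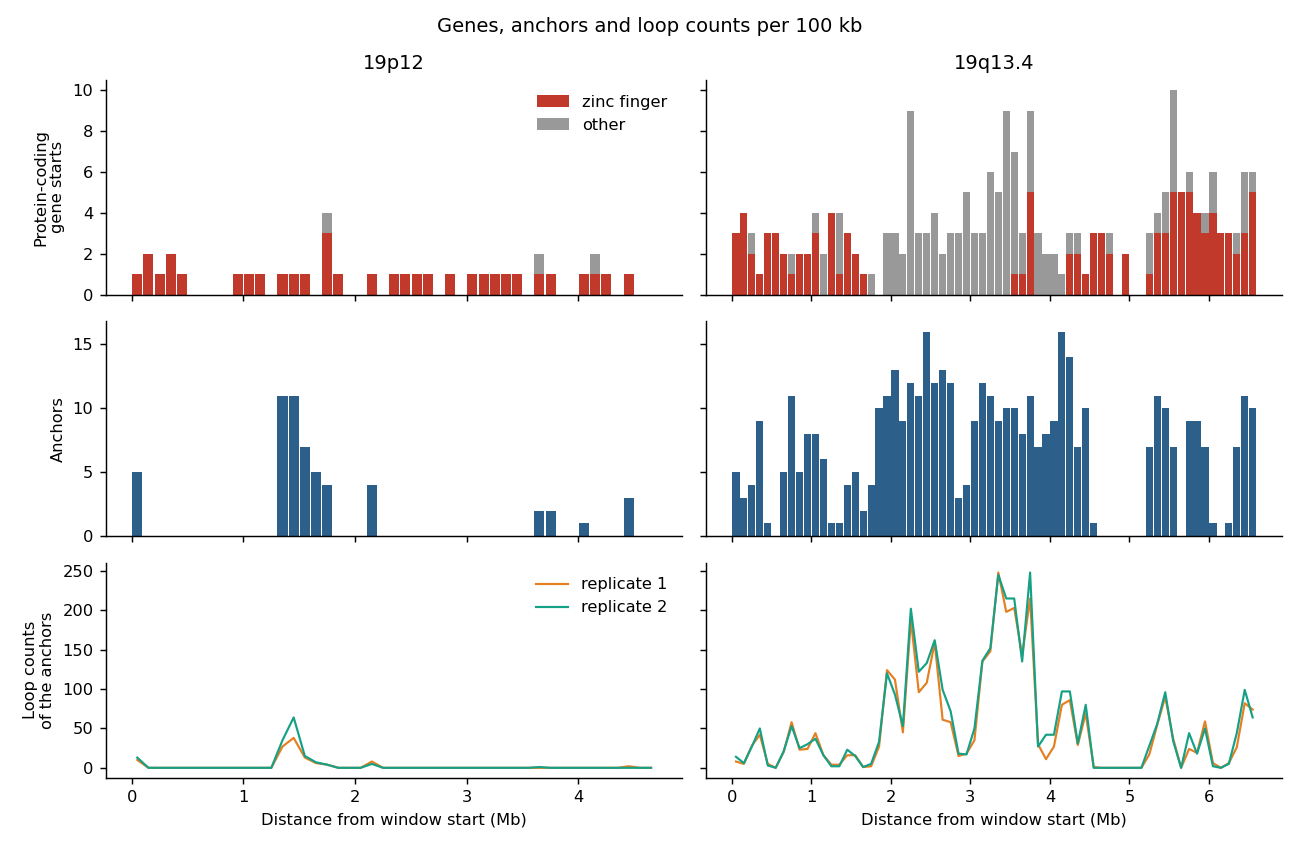
Protein-coding gene starts, anchors and counts of the members per 100 kb along 19p12 (left) and 19q13.4 (right), by distance from the start of each window in Mb. The upper bars stack zinc finger and other genes, the middle bars are anchors and the lines are the 2 replicates, each loop counted at both its anchors. In 19p12, 36 of 47 bins held no anchor, in 19q13.4 9 of 66.

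The anchors of 19p12 were gathered in few places. Of the 55, 38 lay in a block of 477 kb (chr19:21102253-21578957) with the starts of ZNF85, ZNF430, ZNF431, ZNF708 and ZNF738, and 82 of the 101 loops joined anchors of this block. Within it the density was 79.7 per Mb. The 4 runs of at least 300 kb without an anchor made up 71.5% of the sequenced window and held 24 of its 34 zinc finger starts. In the remaining chromosome 5 such runs made up 8.25% of the sequence and held 11 of 120 zinc finger starts.

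The longest run of 19p12, 1503 kb (chr19:21952063-23455481), held 11 zinc finger starts, ZNF208, ZNF257, ZNF676, ZNF729, ZNF98, ZNF492, ZNF99, ZNF723, ZNF728, ZNF730 and ZNF724. Of its positions 87.8% were unique at 50 bases, close to the 88.5% of the whole window. In 19q13.4 there was 1 such run, of 688 kb (chr19:56921846-57610209). It made up 10.4% of the sequenced window, near the 8.25% of the remaining chromosome, and held the starts of 8 of 108 zinc finger genes. Among them were PEG3 and ZIM2, a pair of imprinted genes transcribed from the paternal copy, and 94.7% of the run was unique at 50 bases.

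The other gene families of 19q13.4 were unevenly covered. Of 10 genes of the LILR and LAIR groups, receptors of leukocytes, 6 had their start in an anchor, and the 427 kb that they span held 56 anchors. None of 7 KIR genes, receptors of natural killer cells, had one, and their span of 143 kb held 0 anchors. In that span 29.1% of positions were unique at 50 bases, against 87.3% in the LILR and LAIR span, and the part of repeated sequence in the missing anchors was not tested.

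Of 9 NLRP genes, which encode cytoplasmic sensors, NLRP12 and NLRP2 had a start in an anchor, and of 3 VN1R genes, which encode putative pheromone receptors, none had. Of 48 microRNA genes of the C19MC and MIR371 clusters, known for expression in placenta and embryonic stem cells, 9 lay in 8 anchors with 2 to 10 counts to other anchors.

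Anchors also carried fewer counts in the windows. Depth is taken as the counts of an anchor to other anchors up to 2 Mb away. In 19p12 the mean depth per anchor was 2.47 in replicate 1 and 3.05 in replicate 2, in 19q13.4 it was 7.97 and 8.70, and in the remaining chromosome 10.4 and 12.05. The order was the same in both replicates and the values of the replicates did not overlap between regions.

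The depth per anchor over both replicates was 0.246 times that of the remaining chromosome in 19p12 (0.209 to 0.289) and 0.743 times in 19q13.4 (0.718 to 0.768). A read pair between anchors of the same region adds to the depth of both, so these intervals were computed from the summed depth divided by 2. Counts of an anchor with itself, which do not depend on a partner, were 1.69, 3.19 and 3.92 per anchor, or 0.432 (0.348 to 0.529) and 0.813 (0.770 to 0.858) times. Anchors within a region differed widely, from 1 to 166 counts in 19q13.4, so these intervals are narrower than the spread between anchors.

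Within 19q13.4, anchors of the zinc finger stretches had a mean depth of 13.1 counts, against 21.4 in the gene-rich stretch, a ratio of 0.615 (0.576 to 0.656) that was 0.609 and 0.621 in the replicates. The gene-rich stretch was at 0.921 times (0.881 to 0.963) the 23.2 of the remaining chromosome without zinc finger stretches. This ratio was 0.957 (0.896 to 1.02) in replicate 1, where the interval held 1, and 0.890 (0.837 to 0.947) in replicate 2.

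Loops inside the windows were shorter, but a member needs both anchors in its window, so loops leaving it were not counted. Of the counts inside or crossing the edge, 29.2% crossed it in 19p12 (51 loops) and 5.57% in 19q13.4 (183 loops). The distances of these loops are not given here, and their part in the difference was not tested. The median distance was 36.5 and 51.8 kb in the replicates in 19p12, 89.3 and 101 kb in 19q13.4 and 106 and 112 kb in the remaining chromosome. Of the loops in either replicate, 71 of 101 (70.3%, 60.4 to 79.0) spanned less than 100 kb in 19p12 and 1178 of 2520 (46.7%, 44.8 to 48.7) in 19q13.4, against 43.4% elsewhere. The odds ratio was 3.09 (1.99 to 4.90, Fisher's exact test, two-sided, adjusted p = 4.91e-07) in 19p12. In 19q13.4 it was 1.14 (1.05 to 1.24, Fisher's exact test, adjusted p = 0.00395), but 1.07 (0.987 to 1.16) against the remaining chromosome without zinc finger stretches and 1.09 (0.980 to 1.21) in replicate 2 alone.

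Shares of short loops depend on how anchors are spaced, so counts were also set against the number of anchor pairs at each distance. Under 20 kb, 100 anchor pairs had 87.7 counts in 19p12, 142 in 19q13.4 and 176 elsewhere. The ratios to the remaining chromosome were 0.498, 0.454 and 0.568 in 19p12 under 20 kb, at 20 to 100 kb and at 100 to 500 kb, and 0.809, 0.895 and 0.935 in 19q13.4, the last with an adjusted p of 0.0791 in the exact binomial test. From 500 kb to 2 Mb both turned, to 2.37 (1.08 to 4.50) in 19p12 and 1.16 (1.06 to 1.27) in 19q13.4. The former rests on 9 counts, and its interval held 1 in each replicate, with 0.804 to 5.79 in replicate 2 and 0.613 to 5.77 in replicate 1. That of 19q13.4 also held 1 in replicate 1 alone (0.982 to 1.29).

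**Figure D2:**
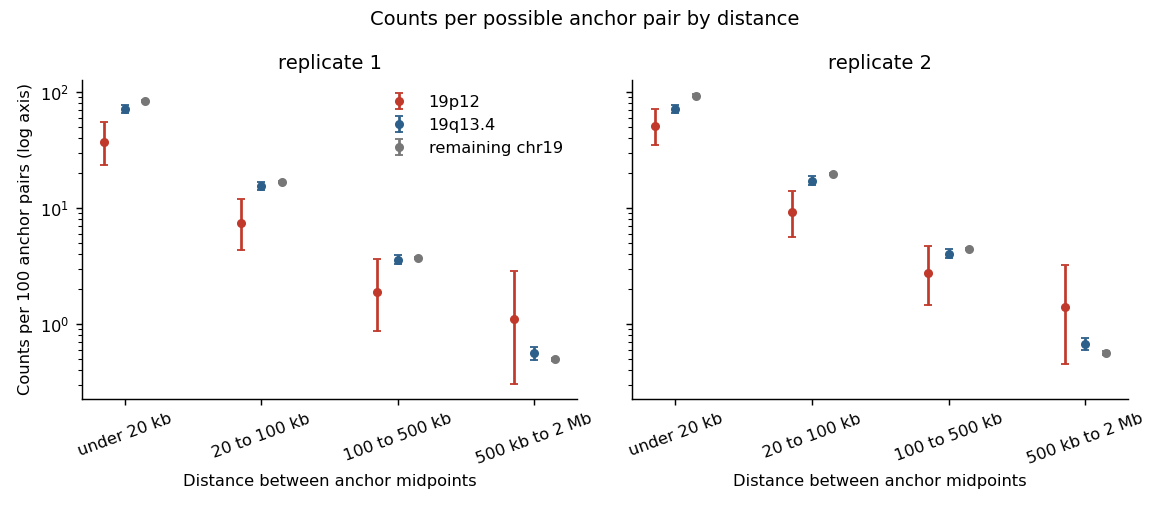
Counts per 100 possible anchor pairs (log axis) by distance class in each replicate, with exact Poisson 95% intervals, for 19p12, 19q13.4 and the remaining chromosome 19. 19p12 lay lowest in the first 3 classes, and the order turned from 500 kb on, where its interval was wide.

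Observed counts were next compared with those expected at the same distance for anchors as deep as these, with depth taken from the same tables. Because that depth comes from the counts compared, the totals of a window are held near those expected and are not read here, and the values by distance are a description. From 500 kb on, the ratio was 1.95 (0.891 to 3.70) in 19p12, 1.20 (1.02 to 1.40) in the zinc finger stretches of 19q13.4 and 0.721 (0.607 to 0.850) in its gene-rich stretch.

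Strong loops, with a summed count of at least 5, numbered 1 of 101 in 19p12 and 84 of 2520 (3.33%, 2.67 to 4.11) in 19q13.4, beside 2.72% in the remaining chromosome and 1.47% over all chromosomes. The odds ratios were 0.357 (0.00894 to 2.04) and 1.23 (0.969 to 1.55) against the remaining chromosome, and neither passed Fisher's exact test (adjusted p = 0.647 and 0.137). Within replicate 1 alone, 0 members of 19p12 and 20 of 19q13.4 reached 5 counts, and in replicate 2 again 0 and 20, which was 1.48% and 1.33% of the loops of 19q13.4. The shares in the remaining chromosome were 1.12% and 1.27%, and over all chromosomes 0.493% and 0.596%. Of the 84, 79 had counts in both replicates and 64 spanned less than 20 kb. Of the 84, 2 (2.38%) joined 2 zinc finger starts, 18 (21.4%) held 1 and 64 (76.2%) held none. These shares lay close to those of all 2520 loops of the window, 3.69%, 21.6% and 74.7%.

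Strong loops made up 58 of 1182 loops (4.91%) in the gene-rich stretch and 25 of 989 (2.53%) in the zinc finger stretches, an odds ratio of 0.503 (0.299 to 0.824, Fisher's exact test, adjusted p = 0.0127). It was 0.648 (0.376 to 1.09) without anchors of 10 kb or more, which were part of 15 strong loops, all in the gene-rich stretch. With at least 5 counts within 1 replicate it was 1.02 (0.372 to 2.74) in replicate 1 and 1.01 (0.368 to 2.71) in replicate 2. Each replicate had 9 such loops in the zinc finger stretches and 11 in the gene-rich stretch. Both intervals held 1 and also 0.503, so a single replicate cannot decide whether the difference seen in the summed counts holds.

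The loops with the highest counts lay mostly on genes outside the zinc finger family. First was a loop of 7.89 kb from the start of U2AF2, a splicing factor that binds the polypyrimidine tract, to its exons 2 to 7 of 12 (chr19:56164112-56169115 and chr19:56170101-56178900). It had 16 counts in replicate 1 and 11 in replicate 2, and the sum was 1.69 times the 15.99 expected (1.11 to 2.46). The expected counts were 4.20 in replicate 1 and 12.9 in replicate 2, so only replicate 1 lay above its own. Loops of this set were picked for their counts, which raises such ratios. The start of U2AF2 was also joined to the anchor with the starts of ZNF580 and ZNF581, 12.97 kb away, by 6 and 7 counts, at 2.58 times the 5.03 expected (1.38 to 4.42).

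An anchor of 35.9 kb over exons 1 to 20 of PPP6R1, a regulatory subunit of protein phosphatase 6, was part of 4 of the 10 highest loops (chr19:55742876-55778757). It also overlapped exons 5 to 8 of the 8 exons of HSPBP1. It was joined by 11 and 7 counts to an anchor with the starts of a pair of non-coding genes 33.6 kb away (ENSG00000286230 and ENSG00000267649), at 2.38 times the expected 7.55. To the anchor with the starts of HSPBP1, a partner of the chaperone HSP70, and the kinase gene BRSK1 it had 3 and 9 counts, at 1.23 times (0.636 to 2.15). The start of PTPRH, a receptor tyrosine phosphatase, had 5 and 4 counts with it and 9 and 6 with the non-coding anchor.

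The tenth place of 19q13.4 was tied, with 4 loops at a sum of 9, and ties went to the lower start. The other loops of this set were within SBK3 (5 and 6 counts), within CNOT3, a subunit of the CCR4-NOT deadenylase (6 and 4), from an intron of PTPRH to PPP6R1 (3 and 6), and from the anchor of FIZ1 and ZNF524 to that of ZNF865 (8 and 2). In the last of these the replicates differed most. In 19p12 the highest loop joined the anchor with the start of ZNF430 to one 5.32 kb upstream with no gene (chr19:21197482-21200769), with 1 and 4 counts, at 1.54 times the expected 3.25 (0.499 to 3.59). Next was ZNF14 with 2 and 1 counts to an anchor 7.42 kb away. The others were drawn by the same rule from 19 loops tied at 2 counts.

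**Figure D3:**
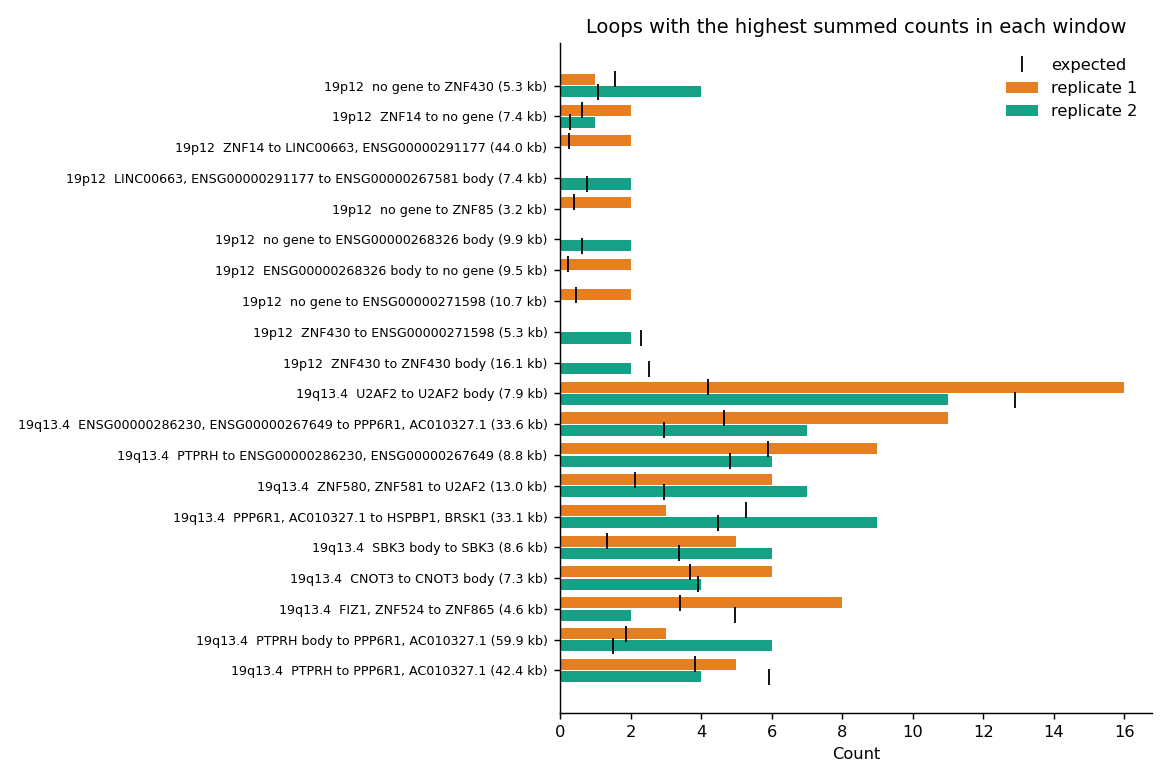
Counts of the 10 loops with the highest summed count in each window, in replicate 1 and replicate 2, named by the gene starts in both anchors or, where there is none, the gene whose body is overlapped. Vertical ticks mark the expected count in that replicate, drawn where the count was above 0. The highest bar is the loop within U2AF2, with 16 counts in replicate 1, and no loop of 19p12 exceeds 4 counts in a replicate.

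No member exceeded the count expected from distance and depth at an adjusted p under 0.01 in the one-sided Poisson test, adjusted by Benjamini-Hochberg over all 51094602 anchor pairs up to 2 Mb. The background was 2.54e-05% of pairs, or 13 loops of all chromosomes. With distance alone as the expectation, 13 of the 58145 anchor pairs of 19q13.4 and 0 of the 1125 of 19p12 were called. The background was 5322 of all pairs (0.0104%), of which 194 lay on chromosome 19. The 13 included 7 loops of the PPP6R1 anchor and the 2 loops of the U2AF2 start. The rest were the loops of PTPRH with the non-coding anchor, KMT5C with GARIN5B, SSC5D with ZNF865, and IL11 with ZNF628. At an unadjusted p under 0.05 there were 28 of 101 loops of 19p12 and 758 of 2520 of 19q13.4. With distance alone there were 13 and 932. Only pairs with at least 1 count were given a p, so a pair with a small expected count passes at 1 count. The share over all loops is not given here, so these counts are not read as an excess.

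Starts of zinc finger genes lay in anchors less often in 19p12. This held for 8 of 34 starts (23.5%, 10.7 to 41.2) in 19p12, 59 of 108 (54.6%, 44.8 to 64.2) in 19q13.4 and 73 of 120 (60.8%, 51.5 to 69.6) in the remaining chromosome. The odds ratio of 19p12 was 0.2002 (0.0720 to 0.503, Fisher's exact test, adjusted p = 0.000693) against the remaining chromosome and 0.258 (0.0923 to 0.652, Fisher's exact test, adjusted p = 0.00479) against 19q13.4. In 19q13.4 the share did not pass the test against the remaining chromosome (odds ratio 0.776, 0.442 to 1.36) or against other genes of the window, of which 60 of 117 had their start in an anchor (1.14, 0.655 to 2.00). These tests treat starts as independent, but genes are not replicates and neighbours can share an anchor. The p-values therefore overstate the evidence.

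The depth of anchors with a start was lower for zinc finger genes than for others wherever both were numerous. The median was 4 counts in 19p12 (0 to 17), 16 in 19q13.4 (1 to 116) and 19 in the remaining chromosome (2 to 122) for zinc finger starts, against 33 and 34 for other genes in 19q13.4 and the remaining chromosome. This is a description over anchors, which are not replicates. Of the anchors with a zinc finger start, 12 of 58 (20.7%) in 19q13.4 had a strong loop, and of those with another start 33 of 54 (61.1%). The remaining chromosome was alike, with 12 of 71 (16.9%) and 327 of 592 (55.2%), so this contrast was not particular to the window.

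In 19p12, the start of ZNF430 had 4 counts in replicate 1 and 13 in replicate 2. ZNF14 had 7 and 4, ZNF708 had 2 and 3, ZNF85 had 3 and 1, ZNF100 had 1 and 3 and ZNF738 had 1 and 1. ZNF675 and ZNF91 had 0 in both, and ZNF91, whose protein silences SVA retrotransposons, had 1 count with itself in replicate 1. No zinc finger start of 19p12 but that of ZNF430 had a strong loop.

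In 19q13.4, the start of ZNF628 stood above the other zinc finger starts with 63 and 53 counts and 7 strong loops. It lies in the gene-rich stretch. ZNF865 followed with 24 and 31 counts, ZNF497 with 28 and 24, ZNF547 with 23 and 22 and ZSCAN5A with 18 and 27. The order of these 4 differed between replicates. All but the anchor of ZNF865 also hold starts of other genes or of non-coding RNAs, so their counts cannot be assigned to 1 gene. At the low end, ZNF615 and ZIM3 had 0 and 1 counts each.

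**Figure D4:**
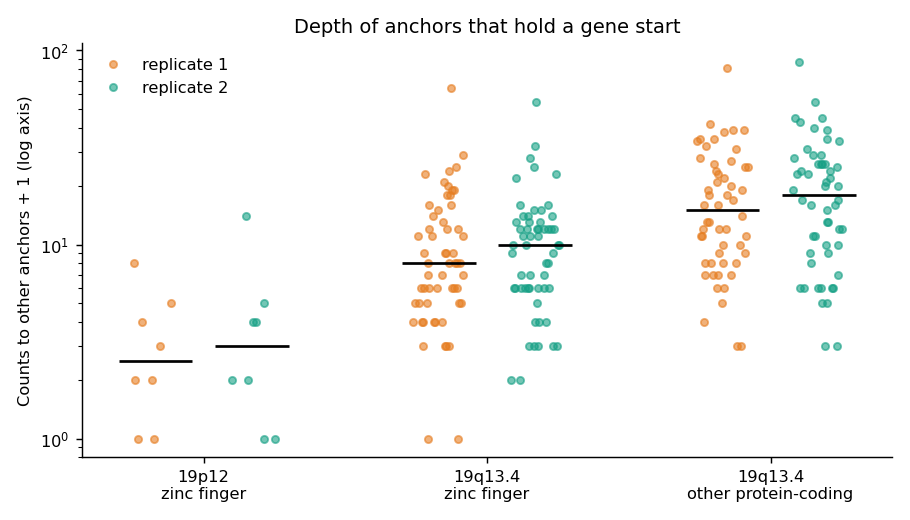
Counts to other anchors plus 1 (log axis) of each anchor that holds a start of a zinc finger gene in 19p12 or 19q13.4, or of another protein-coding gene in 19q13.4, in replicate 1 and replicate 2. Each point is an anchor and black lines are medians. The medians of 19q13.4 were 7 and 9 counts for zinc finger starts and 14 and 17 for other starts.

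Pairs of zinc finger starts were joined by few counts. Besides FIZ1 and ZNF524 with ZNF865, the highest were ZNF304 with ZNF547 (3 and 3 counts over 11.7 kb), ZNF579 with ZNF865 (1 and 3 over 25.6 kb), ZNF497 with ZNF837 (2 and 1) and ZNF324 with ZNF446 (1 and 2). The ratios of these 5 to the expected count lay between 1.02 and 2.80, and each interval held 1. The other 5 of the 10 highest were taken by the lower start from 19 tied at 2 counts, and had ratios of 3.86 to 15.6, of which ZNF649 with ZNF614 (15.6, 1.89 to 56.5), ZNF616 with ZNF701 (10.2, 1.23 to 36.7) and ZNF701 with ZNF611 (8.28, 1.00 to 29.9) had intervals above 1. In 19p12 there were 2 such loops of 1 count each, ZNF14 with ZNF738 over 1698 kb at 459 times the expected count (11.6 to 2559), and ZNF430 with ZNF708 over 308 kb, at 12.4 times (0.313 to 68.9). None of these 12 loops passed the exact one-sided Poisson test over all anchor pairs (adjusted p = 1 for each). Only pairs with at least 1 count are loops, and these were picked for their counts. A pair with a small expected count therefore has a high ratio by selection, and intervals above 1 are not read as an excess.

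Contacts beyond 2 Mb were counted between the windows and with other zinc finger stretches. The windows were joined by 10 counts over 28.2 to 39.2 Mb, 5 in each replicate, against 11.1 expected (ratio 0.902, 0.433 to 1.66), or 8.44 with depth taken from counts over 2 Mb. At this depth no difference was detectable. Within 19q13.4, anchors of the zinc finger stretches were joined with each other over 2.00 to 6.59 Mb. Pairs across the gene-rich stretch were not set apart from pairs inside the stretch at chr19:56000001-59000000. All these pairs had 66 counts against 34.6 expected, a ratio of 1.91 (1.48 to 2.43). It was 1.61 (1.06 to 2.34) in replicate 1 and 2.19 (1.56 to 2.998) in replicate 2, and 1.58 (1.22 to 2.01) with depth from counts over 2 Mb.

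With the other zinc finger stretches of the chromosome they had 176 counts against 122 (1.45, 1.24 to 1.68), and with the remaining chromosome without such stretches 557 against 631 (0.882, 0.811 to 0.959). The latter was 0.867 (0.763 to 0.982) in replicate 1 and 0.900 (0.803 to 1.01) in replicate 2, where the interval held 1. The gene-rich stretch between them had 1.60 times (1.38 to 1.85) the expected count with the other zinc finger stretches, so the excess was not seen for zinc finger stretches only. For 19p12 the ratios were 1.14 (0.809 to 1.55) with other zinc finger stretches and 0.529 (0.426 to 0.651) with the remainder, and these moved to 1.72 (1.23 to 2.36) and 0.842 (0.677 to 1.03) with depth from counts over 2 Mb. The replicates differed in both, with 1.59 (0.970 to 2.45) in replicate 1 and 0.713 (0.429 to 1.11) in replicate 2 for the former, and 0.713 (0.520 to 0.954) and 0.341 (0.249 to 0.457) for the latter. These pairs of stretches were chosen after the data had been seen.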

How the data were processed

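H3K27ac HiChIP of HCT116 was measured in 2 replicates of 1 condition. Per the labels and the methods, chromatin was digested with MboI, valid pairs were made with HiC-Pro on hg19 and loops with hichipper, whose versions are not given in the sources used here. The deposited values are raw counts of read pairs per anchor pair, not normalized, with no molecular identifiers. The replicates held 1885481 and 2131466 counts, and most loops have a count of 1.

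Windows were compared with the remaining chromosome 19 within the same libraries, by exact binomial tests of rates and Fisher's exact tests, adjusted by Benjamini-Hochberg over 212 tests. The expected count came from 60 distance classes and anchor weights balanced in 20 rounds over all chromosomes, with the pair left out of its own depth and an offset of 0.5, and the code was tested on simulated data. Beyond 2 Mb, 30 distance classes of chromosome 19 were used. A loop inside a region was counted in the depth of both its anchors, and intervals of depth ratios used the summed depth divided by 2. Genes were canonical transcripts of GENCODE release 44 on hg19, with sequence from the same build. Zinc finger genes were taken by symbol, and their starts were aligned globally with Biopython, identity being the share of 250 positions. Genes were named for the 10 loops with the highest sum in each window, loops past the expectation, the 5 deepest zinc finger starts, the 10 highest loops between zinc finger starts, and fixed families. Other genes named were chosen after their values were seen. Members and lists were chosen with earlier results of these data known. Tests ran in Python 3.11.15 with scipy 1.17.1, and figures were drawn with matplotlib 3.10.9. Loops crossing the edge of a window, 51 at 19p12 and 183 at 19q13.4, were not members but counted towards depth.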

Additional observations from a re-analysis of the deposited data

How the results depend on the processing

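No paired analysis was possible because both replicates are of 1 condition. Of 101 alternatives over 24 results, 79 kept the direction and the side of the threshold. In 19p12 the odds ratio of loops under 100 kb became 5.10 and no longer passed with loops of a count of at least 2, and that of strong loops passed at a count of at least 3, at 0.208. In 19q13.4 the odds ratio of loops under 100 kb no longer passed without zinc finger clusters in the remaining chromosome (1.07), and reversed to 0.871 with loops of a count of at least 2, where it did not pass. It ranged from 1.09 to 1.15 without 1 replicate. The odds ratio of strong loops in 19q13.4 passed with loops of at least 10 kb (1.44), and reversed without passing at a count of at least 10 (0.760) or 3 (0.964). The odds ratio of strong loops between zinc finger stretches and gene-rich stretch did not pass without wide anchors (0.648), and without 1 replicate it was 1.01 to 1.02. Calls above expectation in 19q13.4 rose from 0 to 13 with distance alone.

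Counts per anchor pair from 500 kb gave 2.25 to 2.48 in 19p12 and 1.13 to 1.20 in 19q13.4 without 1 replicate. With depth from counts over 2 Mb, the ratio of contacts between the windows reversed to 1.18, that of the gene-rich stretch with the remaining chromosome from 1.18 to 0.931, and those of 19p12 changed to 1.72 with other zinc finger stretches, then past the threshold, and 0.842 with the remaining chromosome, no longer past it. Without 1 replicate, contacts between the windows ranged from 0.541 to 1.29, those of 19p12 with other zinc finger stretches from 0.713 to 1.59, with the remaining chromosome from 0.341 to 0.713, and those of the zinc finger stretches of 19q13.4 with the remaining chromosome from 0.867 to 0.900, no longer past the threshold in replicate 2 alone. The cause was not tested. With 126 counts in the loops of 19p12, differences there were detectable in sums over the window and not for single loops.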
